A study of Rattus norvegicus with 4 samples.

Results

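The regions described here are weak stretches of trimethylated lysine 4 on histone H3 (H3K4me3) that were called in transected rat sciatic nerve and not in sham nerve. They were selected on measured values: a peak of the transected list that overlaps no peak of the sham list by 1 bp, is wider than the 150 bp calling window, and holds fewer than 79.2 normalized tags. A normalized tag is a sequenced fragment scaled to a library of 10000000 tags. The rule found 1272 regions among the 33100 peaks of the transected list. Of all transected peaks, 11.9% had no sham partner, and of the 13337 peaks wider than 1 window and under the tag limit, 9.54% had none. The rule used this contrast, so absence from the sham list and low tag count describe the choice and are not results.

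H3K4me3 is placed by SET1 and MLL methyltransferase complexes, most densely over the start sites of active genes and CpG-rich promoters. Weaker H3K4me3 also occurs along the flanks of promoter domains and at some enhancers. In a cut nerve the Schwann cells distal to the injury lose contact with axons and take on a repair state, and immune cells enter the tissue.

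The study used adult male Sprague Dawley rats; the labels' passage field reads P42. A sciatic nerve was cut, and the stump distal to the cut was taken 1 day later (2 samples). The contralateral side, which received a skin incision alone, gave the sham nerve (2 samples). Chromatin was cut with micrococcal nuclease and precipitated with an H3K4me3 antibody. The samples of a group were pooled before peaks were called, so each region below has 1 value, no replicate spread and no test. No label states that the 2 samples pooled in each list were separate animals. In whole nerve, a mark carried by fewer cells and less mark per cell cannot be told apart. Both lists cover 21 chromosomes, and the regions are given by position because no gene annotation of the lists' build was used here.

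The transected list rested on 21307148 tags and the sham list on 22595649. The caller asked for 8 tags in a window in both lists, which is 3.75 normalized tags in transected and 3.54 in sham nerve. Expressed as density over 1 window, that threshold is 25.03 normalized tags per kb in transected and 23.6 in sham nerve. Per the file headers, fragments were estimated at 132 bp for the transected and 144 bp for the sham list. Intervals below are exact 95% binomial intervals, or order-statistic intervals for medians. They cover counting error alone, take neighbouring regions as independent, and describe these lists, not the conditions.

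The weak transected-only regions were small, sparse and close to the floor of the caller. Together they covered 355 kb, 1.12% of the length of all transected peaks, and held 0.130% of the tags in those peaks. Their median width was 214 bp (interval 208 to 222), and the narrowest was 187 bp, the next width that occurs in the list after 1 window. The middle 50% of them lay between 193 and 308 bp. Of the 1272, 932 (73.3%) were under 300 bp, 95 reached 500 bp and 8 reached 1 kb. Tag counts ran from 3.29 to 73.2 normalized tags with a median of 7.51, which was 16 tags before scaling. A tag count under 10 was found for 941 regions (73.98%), and 5 regions reached 40.

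Density was more even than width. The median was 30.8 normalized tags per kb (interval 30.1 to 31.2), a little above the 25.03 tags per kb that the threshold asks of 1 window. From the 5th to the 95th percentile it spanned 21.9 to 46.8 tags per kb, and 44 regions (3.46%) reached 50. Density over a whole region could also fall below the value for 1 window: 215 regions (16.9%) were under 25 tags per kb. Wider regions held more tags (Spearman's rho 0.71 over the 1272 regions) but were hardly different in density (rho -0.08). Both measures come from the same tags and lengths, and the values are descriptions. The findPeaks score, the caller's own rank value, equalled the threshold of 8 in 464 regions (36.5%). The clonal fold, which rises where tags pile up at few positions, exceeded 1 in 0 of the 1272 regions and was at most 0.85. That count allows a share of up to 0.29%, and 0.464% of the shared regions described next exceeded 1. These shares were not taken at like tag count. Among the shared regions, the highest clonal fold was 0.86 under 10 tags and 1 from 10 to 20 tags. Those above 1 thus held at least 20 tags, and below 20 tags neither set exceeded 1. At least 20 tags were held by 3.46% of the transected-only and 47.6% of the shared regions.

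**Figure D1:**
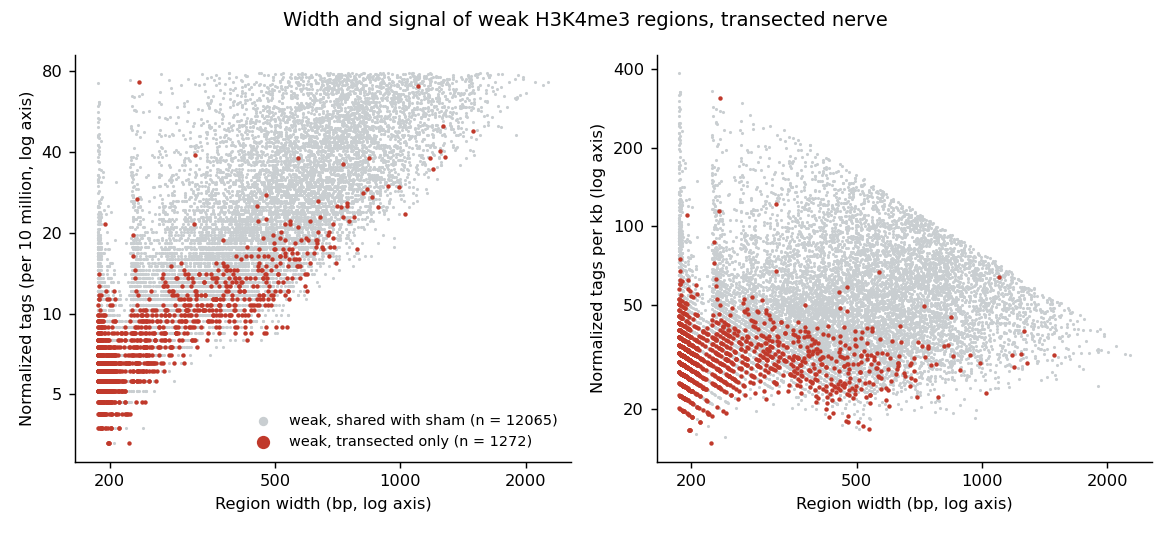
Each point is 1 region of the transected list wider than 1 window and under the tag limit: left, normalized tags against width in bp; right, normalized tags per kb against width, all on log axes. Red points are the 1272 transected-only regions and grey points the 12065 shared with sham. Most red points lie low in the grey cloud, with a median of 30.8 tags per kb against 45.3, though 44 reach 50. Part of this contrast is tag count, since 73.98% of red and 21.2% of grey points are under 10 tags. In that class the medians are 29.9 and 33.2 tags per kb.

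Shared peaks of like tag count give the measure for these values. In the transected list, 12065 peaks wider than 1 window and under the tag limit overlapped a sham peak. With fewer than 10 tags, transected-only and shared peaks had nearly the same median width, 200 bp (interval 198 to 201) and 205 bp (203 to 207). Their median densities were 29.9 and 33.2 tags per kb. From 10 to 20 tags, the transected-only regions were wider, at 385 bp (interval 368 to 402) against 346 bp (341 to 351), and sparser, at 32.6 against 40.9 tags per kb. From 20 to 40 tags the medians were 688 bp (interval 567 to 754, 39 regions) against 533 bp, and 35.9 against 52.1 tags per kb. At the same number of tags, a transected-only region thus spread them over a longer stretch than a shared one from 10 to 40 tags. The weak sham-only regions, 3004 in number, showed the same kind of shape: their median was 238 bp and 28.8 tags per kb, and from 20 to 40 tags 707 bp and 36.9 tags per kb.

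The share of peaks without a partner fell steeply with tag count. In the transected list it was 52.2% (interval 45.5 to 58.9) under 5 tags, 33.1% from 5 to 7.5 tags and 9.30% from 10 to 15 tags. Between 20 and 30 tags it was 1.61%, and from 40 to 60 tags 0.190% (3 of 1582 peaks). The sham list had a larger share without a partner in every class up to 60 tags, such as 52.6% from 5 to 7.5 tags and 22.8% from 10 to 15. From 30 tags upwards the intervals of the lists overlapped, and from 40 to 60 tags the share was 0.457% in sham (8 of 1749 peaks). From 60 tags to the limit it was 2 peaks in each list (of 972 transected and 999 sham). Over all weak peaks wider than 1 window it was 19.7% in sham (interval 19.1 to 20.3) and 9.54% in transected nerve (9.04 to 10.0), and it was lower in the transected list on 21 of 21 chromosomes. By chromosome, the transected share lay between 7.72% on chromosome 2 and 12.1% on chromosome 16.

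**Figure D2:**
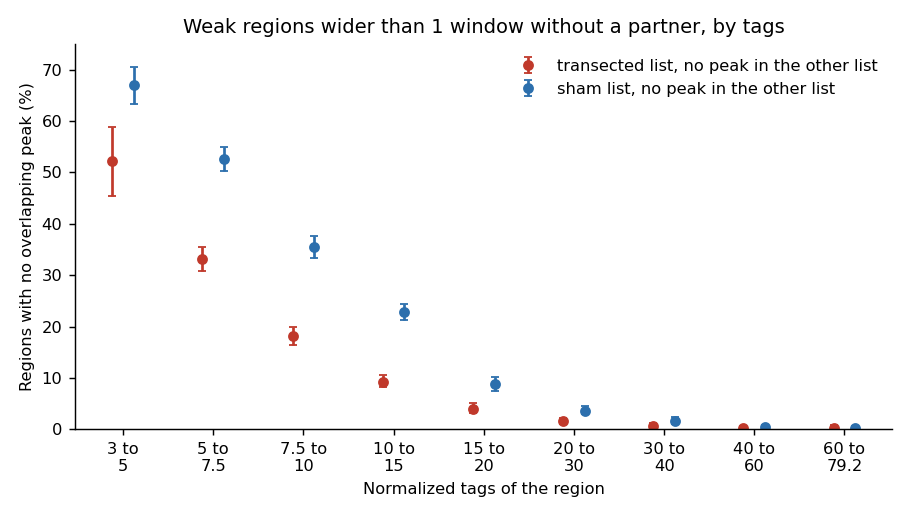
Share of weak peaks wider than 1 window that overlap no peak of the other list (vertical axis, percent) by class of normalized tags (horizontal axis), with exact 95% intervals as bars. Red is the transected list and blue the sham list; both fall from over 50% in the weakest class to under 1% at 40 tags and above.

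Shared peaks of like tag count were, in the typical case, a little weaker in transected than in sham nerve. For shared transected peaks under 10 tags, the median was 7.51 tags and their sham partners had a median of 10.6, with 5% of partners below 3.98 and 25% below 6.64. The median log2 ratio of transected over sham, not centred, was -0.50 (interval -0.55 to -0.46) in this class and -0.19 (-0.21 to -0.17) from 40 tags to the limit. These peaks were chosen on a low transected tag count, which by itself tilts the ratio downwards. The standard deviation of the log2 ratio shrank from 1.66 under 10 tags to 0.73 from 40 tags to the limit. Each ratio sets 1 transected peak against the whole of any sham peak it overlaps, so a fragment can meet a long domain. Under 10 tags, 5% of partners exceeded 203 tags, and 12.4% of peaks had a partner that other transected peaks also overlapped. From 40 tags to the limit these values were 128 tags and 7.26%. How far this widens the spread or lowers the median was not tested. A sham partner of 1 window was found for 19.4% of the shared peaks under 10 tags (498 of 2563) and for 0.275% (7 of 2549) from 40 tags to the limit. The weakest shared peaks thus had partners of the smallest called size far more often than the stronger ones.

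Single shared peaks from 40 tags to the limit show the spread. The middle one by ratio, on chromosome 1 at 212121309 to 212122419, had 76.5 tags in transected and 87.2 in sham nerve. The highest ratio was on chromosome 7 at 120971571 to 120973506, where 65.2 tags over 1935 bp in transected nerve met a sham peak of 3.54 tags and 150 bp. Its place among the shared peaks rested on that single sham window. The lowest ratio was on chromosome 1 at 132486454 to 132487303, with 44.1 tags inside a sham peak of 16767 bp and 3323.2 tags.

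Transected-only regions lay close to sham peaks, and about as close to other peaks of their own list. The median gap to the nearest sham peak, edge to edge, was 1414.5 bp (interval 1221 to 1668). Separate peaks of 1 list came as close as 220 bp edge to edge, and 175 of the 1272 regions (13.8%) had a sham peak within that distance. Within 370 bp, the minimum distance set for the caller, there were 322 (25.3%). Within 1 kb there were 567 (44.6%), and within 5 kb 848 (66.7%). For weak sham-only regions the median gap to the nearest transected peak was 7519.5 bp (interval 6740 to 8463), and 26.0% had one within 1 kb. The size of these gaps depended on which peaks were compared. With the upper 75% of peaks by score in both lists the medians were 8566 and 12551 bp, and with peaks of 1 window not counted as partners 4048.5 and 11941 bp. With peaks within 370 bp counted as shared they were 3742 and 11429 bp, and within 1 kb 8264 and 15890 bp. The transected-only median was the lower one in each of these 4 settings. The sham list has more peaks to be near to, 35856 against 33100. The nearest sham peak was strong (at least 79.2 tags) for 490 transected-only regions, weak and shared for 527, and itself found in sham alone for 257 (20.2%). A strong peak found in sham alone counts in both of these kinds. Of all 35856 sham peaks, 3004 weak ones wider than 1 window and 4076 of 1 window were in sham alone, so 20.2% is near the general share. Among the 322 regions within 370 bp, it was found in sham alone for 122 (37.9%). The like share was 41.5% (168 of 405) for weak sham-only regions within 370 bp of a transected peak.

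The closest pairs show calls that nearly meet. On chromosome 2, the transected-only region at 206775564 to 206775751 (6.57 tags) ended 2 bp before a sham-only peak of 386 bp and 10.2 tags. A gap of 2 bp also separated the region at 171818319 to 171818508 on chromosome 5 (6.10 tags) from a sham-only window of 4.87 tags. On chromosome 20, the region at 6486972 to 6487281 (9.86 tags) began 5 bp past a sham-only peak of 196 bp and 9.74 tags. The region at 166275798 to 166276042 on chromosome 3 (6.10 tags) lay 6 bp from a sham-only window of 3.54 tags. In these 4 pairs both nerves carried weak signal side by side, and the rule of 1 bp put each call in 1 list. The remaining one of the 5 closest, on chromosome 3 at 127899704 to 127899894 (9.39 tags), lay 4 bp from a sham peak of 3084 bp and 1255.6 tags, and 312 bp from the strong transected peak.

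At the other end, 79 regions (6.21%) had no sham peak within 50 kb. This was less common than in weak sham-only regions, of which 14.8% had no transected peak within 50 kb. For transected-only regions of 1 window the share was 7.51%. The farthest was on chromosome X at 147605959 to 147606152, with 7.04 tags and 1713994 bp to the nearest sham peak. Next came chromosome 4, 173745984 to 173746257, at 10.3 tags and 736748 bp from a sham peak. Chromosome X held another, 144727559 to 144727749, at 9.86 tags and 665346 bp. The other two of the 5 farthest were 98503398 to 98503608 of chromosome 2 (3.75 tags) and 130908018 to 130908415 of chromosome X (10.8 tags). All 5 held from 3.75 to 10.8 tags, a range that also takes in the median of all transected-only regions.

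Transected-only regions flanked strong H3K4me3 regions more often than the other weak regions did. A strong region, one with at least 79.2 tags in the transected list, lay within 5 kb of 504 of the 1272 (39.6%, interval 36.9 to 42.4). For shared peaks of the same width and tag limits this share was 22.7% (22.0 to 23.5), and for weak sham-only regions beside strong sham regions 23.6% (22.1 to 25.2). The strong regions numbered 13823 in the transected and 14412 in the sham list. At 1 kb the shares were 22.2%, 11.4% and 11.8% in the same order, and at 10 kb 46.9%, 31.7% and 31.2%. Transected-only regions 1 window wide lay between, with 32.4% within 5 kb (interval 30.6 to 34.2), and sham-only regions of 1 window had 25.5%.

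The transected-only share was the highest in each class of tag count with enough regions. Under 10 tags, 38.6% of transected-only regions (interval 35.5 to 41.8), 26.4% of shared peaks (24.7 to 28.2) and 23.9% of sham-only regions (22.1 to 25.8) flanked a strong region. From 10 to 20 tags the shares were 41.8%, 21.9% and 22.4%. From 20 to 40 tags they were 48.7% (32.4 to 65.2, 39 regions), 22.0% and 25.2% (17.2 to 34.8, 103 regions). The transected-only and sham-only intervals overlapped in this class. From 40 tags to the limit, 2 of the 5 transected-only regions flanked one. On 21 of 21 chromosomes the transected-only share was above that of shared peaks and above that of sham-only regions. The margin was slight on chromosome 2, at 23.0% against 22.8% in sham-only regions, and the highest share was 59.2% on chromosome 7. Because shared peaks include fragments of strong sham regions, the share was also taken over the 10758 shared peaks whose sham partners were all weak, where it was 19.6%. Depth, fragment length and the caller's threshold differed between the lists as given above, and their part in the difference was not tested. The contrast with shared peaks ended when peaks within 1 kb were counted as partners (22.7% against 24.4%), a setting that by construction moves regions beside a strong sham peak to the shared set. Under that setting the sham-only share was 12.8%. With the upper 75% of peaks by score in both lists the shares drew closer, to 24.05% of transected-only, 18.4% of shared and 18.5% of sham-only regions.

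**Figure D3:**
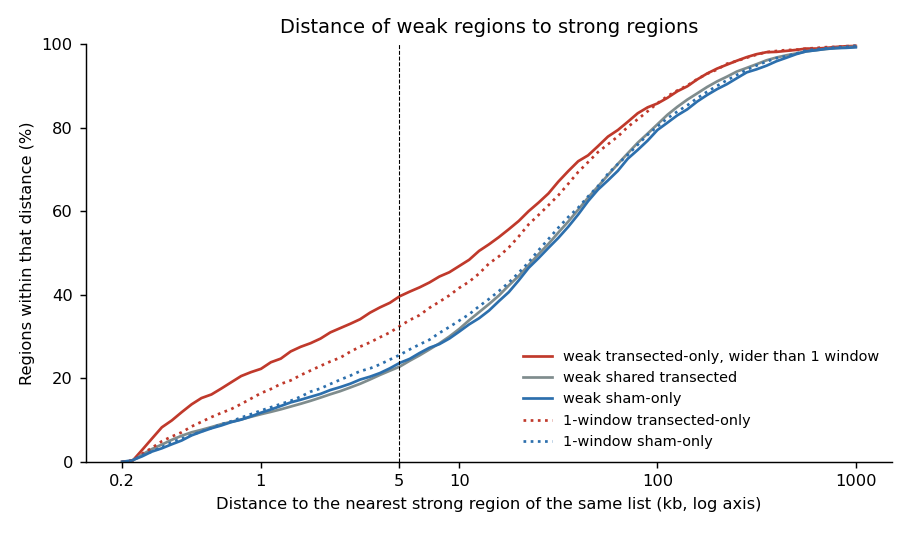
Cumulative share of weak regions (vertical axis, percent) by distance to the nearest strong region of the same list (horizontal axis, kb, log). The red solid line, transected-only regions wider than 1 window, lies above the grey (shared) and blue (sham-only) lines; at the dashed line of 5 kb it reads 39.6% against 22.7% and 23.6%.

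**Figure D4:**
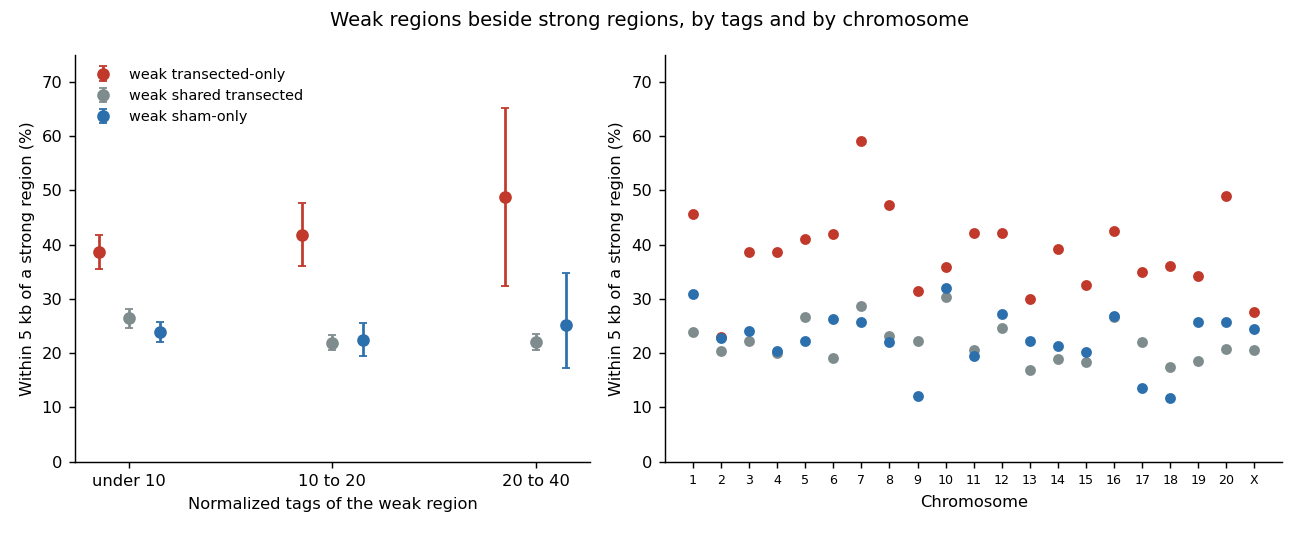
Share of weak regions within 5 kb of a strong region of the same list (vertical axes, percent): left, by normalized tags with exact 95% intervals; right, by chromosome, without intervals. The 5 transected-only regions of 40 tags or more are not drawn; red points lie highest in the 3 classes and on 21 of 21 chromosomes.

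Flanking regions sat close to their strong neighbour and mostly alone. The median gap was 749.5 bp in transected-only regions and 1015 bp in sham-only regions. The 504 flanking regions had 471 nearest strong regions, 3.41% of all strong transected regions. Of these neighbours, 443 had 1 such region, 23 had 2 and 5 had 3. A strong region on both sides within 5 kb was found for 42 of the 504. The flanking regions were a little wider than the other 768, with medians of 229 and 206 bp, at about the same density (30.6 and 30.9 tags per kb). Their neighbours were long and strong, with a median of 2399.5 bp and 679 tags, against 1591 bp and 532 tags over all strong transected regions. The neighbours of sham-only regions had medians of 1967 bp and 441 tags, against 1625 bp and 514 tags over all strong sham regions. On the side facing the transected-only region, the sham edge of the strong neighbour lay nearer to it than the transected edge in 226 of 504 cases (44.8%), with a median shift of 14 bp away from it (-14). The rule left out regions that a sham peak reaches, so it limited beforehand how near the sham edge could lie. Sham-only regions gave a like value: the transected edge lay nearer in 285 of 709 cases (40.2%), with a median shift of -25 bp.

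Strong regions with a transected-only region beside them also had somewhat more H3K4me3 in transected nerve. Overlapping peaks of both lists were merged, and the log2 ratio of transected over sham tags was centred on the median of all shared merged regions (-0.07 before centring). This ratio did not enter the rule, but it is no separate measure, since it and the groups below come from the same calls. A peak of the other list that reaches a weak region makes that region shared and takes it out of these groups. Among strong merged regions, 493 had a transected-only region within 5 kb and no weak sham-only region. Their median centred log2 ratio was 0.14 (interval 0.11 to 0.16). The 12550 strong regions with neither had a median of 0.06 (0.05 to 0.06). The 636 with a sham-only region alone had -0.02 (-0.05 to 0.01). The order of the 3 medians followed the nerve in which the weak neighbour was called. How far the rule itself sets this order was not tested.

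These shifts were small, and their size depended on called length. Divided by called length, the centred medians were 0.049, 0.0097 and -0.034 in the same order. The median ratio of called lengths, transected over sham, was 0.998 beside transected-only regions, 0.973 with neither and 0.952 beside sham-only regions. Counting every strong region with a transected-only neighbour, also those with both kinds, 14 of 540 had a ratio of 2-fold or more in favour of transected nerve and 0 in favour of sham. Of the 13186 without one, 29 reached 2-fold in each direction. The strong regions were chosen on transected tags, which by itself tilts the ratio upwards. Chosen on the mean tags of both lists, the medians were 0.13 (interval 0.10 to 0.16), 0.05 and -0.04 in the same order. The neighbours were stronger than most, so the ratio was also compared within classes of these mean tags. From 79.2 to 200 tags the medians were 0.08 beside transected-only regions (interval -0.01 to 0.18), -0.12 with neither and -0.18 beside sham-only regions. From 200 to 600 tags they were 0.14 (0.06 to 0.20), 0.02 and -0.06. From 600 tags upwards they were 0.14 (0.105 to 0.161), 0.10 (0.099 to 0.109) and 0.03, and the intervals of the first and second overlapped. By mean called length, regions under 1 kb had medians of -0.03 beside transected-only regions (interval -0.15 to 0.12, 33 regions) and -0.04 with neither, a difference not detectable here. From 1 to 2 kb the medians were 0.11 (interval 0.050 to 0.169) and 0.05 (0.046 to 0.058), and the intervals overlapped. From 2 to 3 kb they were 0.16 (0.114 to 0.188) and 0.08 (0.073 to 0.092). Above that they were 0.12 (0.091 to 0.188) and 0.06 (0.040 to 0.072).

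Clustering of the transected-only regions among themselves was modest. Another such region lay within 10 kb of 180 of the 1272 (14.2%, interval 12.3 to 16.2), and within 1 kb of 99 (7.78%). At 10 kb they formed 81 groups, of which 67 were pairs, 11 held 3 and 3 held 4 or more. The 3004 weak sham-only regions had a share of 12.1% at 10 kb (interval 10.9 to 13.3) and 5.66% at 1 kb. The intervals at 10 kb overlapped, and at 50 kb the order was the other way, with 25.9% of transected-only and 27.7% of sham-only regions. The 12065 weak shared peaks had 32.1% at 10 kb. These shares rise with the number of regions in a set, and no expected share was computed. Flanking a strong region went with only a slightly larger share, 15.9% of the flanking and 13.0% of the other transected-only regions. A weak sham-only region wider than 1 window lay within 10 kb of 143 transected-only regions (11.2%), against 9.001% of the shared peaks.

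The group with most members, 5 regions and 50.6 tags in all, spanned 55745046 to 55757627 on chromosome 10. Its 4 left members, at 17.8, 4.69, 4.22 and 11.7 tags, lay between a strong peak of 1380.3 tags and another of 2384.6 tags. The second of these peaks measured 6743 bp; its sham counterpart measured 4108 bp and had 1960.6 tags. The fifth member, 12.2 tags over 498 bp, lay 1007 bp past its other edge. The first strong peak, in contrast, had nearly the same length in both lists, 5858 and 5912 bp.

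On chromosome 1, 4 regions of 10.8, 6.10, 10.3 and 5.63 tags lay from 206474054 to 206477026, around a shared weak peak. That shared peak had 39.0 tags over 926 bp in transected nerve, where sham had separate peaks of 11.5 and 5.31 tags. The nearest strong region was over 11 kb away from each of them (11555 bp from the closest). On chromosome 14, from 71869147 to 71877188, 4 regions of 5.16, 5.63, 12.7 and 28.2 tags led up to a strong peak with 332.8 tags in transected and 321.3 in sham nerve. The largest of them, 812 bp long, was followed by a shared peak of 27.7 tags and 1093 bp whose sham partner had 5.75 tags and 237 bp. In both places the transected list continued a weak stretch of which the sham list called only a part.

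**Figure D5:**
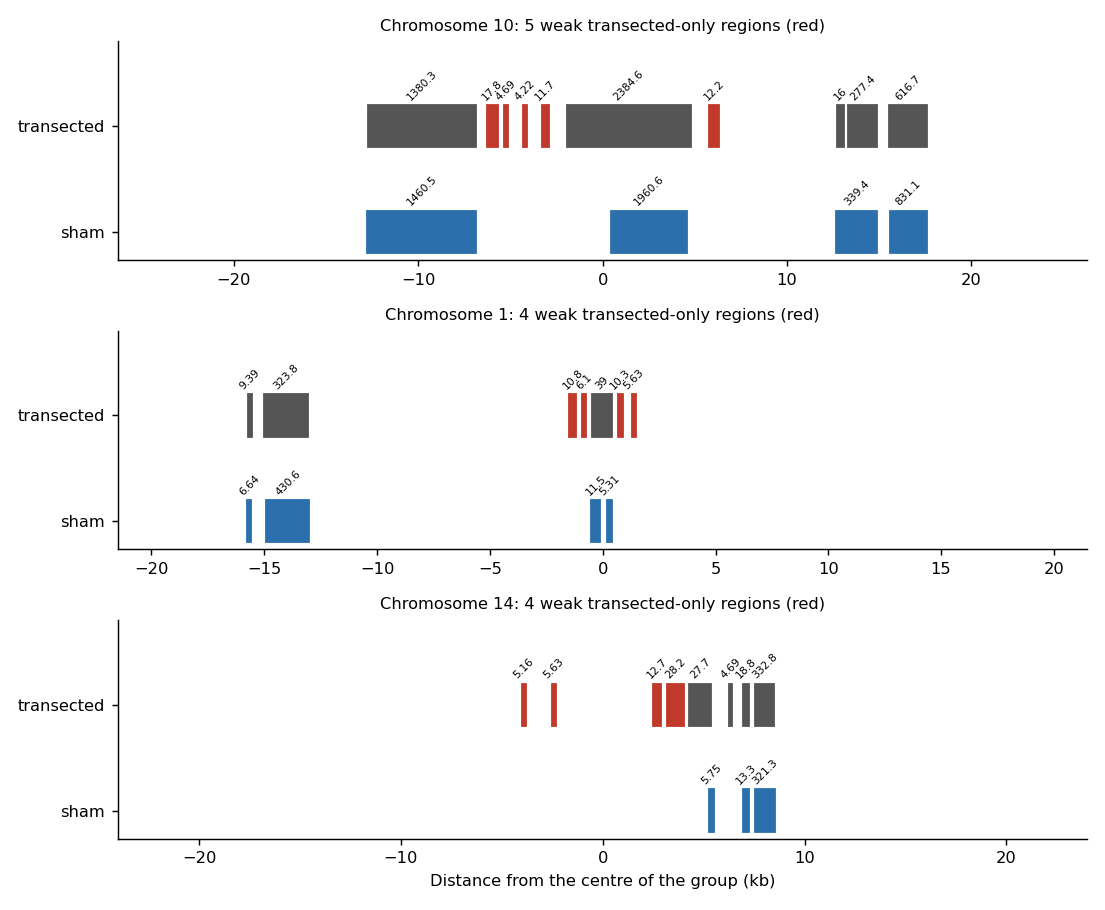
Peaks of both lists around the 3 groups with most transected-only regions, drawn to scale by distance from the centre of each group (horizontal axis, kb), with normalized tags printed above each box. Transected-only regions wider than 1 window and under the tag limit are red, other transected peaks grey and sham peaks blue; on chromosome 10 the red boxes stand around a peak of 6743 bp that is 4108 bp long in sham.

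The regions with most tags differed in shape. On chromosome 10, the region at 57207856 to 57208091 had 73.2 normalized tags (156 before scaling) in only 235 bp. At 311 tags per kb it was the densest of all transected-only regions, and its score was 28 and its clonal fold 0.85. The nearest sham peak was 18118 bp away. The second by tags, at 58649854 to 58650956 on chromosome 17, had 70.4 tags over 1102 bp, with 63.9 tags per kb and a score of 8. Its nearest sham peak lay 17089 bp away. These 2 regions come nearest to the tag limit from below, and the third by tags, on chromosome 1 at 86588178 to 86589444, held 50.2. Above the limit, the transected-only region with fewest tags was on chromosome 17, 45665561 to 45665869, and held 79.3. The next ones held 94.3 tags (chromosome 8, 117078832 to 117080449) and 218.7 tags (chromosome 6, 37787272 to 37788547).

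The widest regions were long and sparse, and most lay near other peaks. The widest of all, at 86657458 to 86658949 on chromosome 10, held 47.9 tags over 1491 bp and lay 382 bp from a sham peak of 458 bp and 13.7 tags. On chromosome 20, the region at 10367517 to 10368800 (38.5 tags, 1283 bp) began 282 bp past a strong transected peak and 320 bp past its sham counterpart of 1110.8 tags. The region at 86588178 to 86589444 on chromosome 1 (1266 bp) lay 2944 bp from a strong transected peak, beside a sham peak of 7506 bp and 2550.0 tags. The next, at 83343586 to 83344829 on chromosome 1 (40.4 tags, 1243 bp), was farther off, 11289 bp from a strong region. On chromosome 5, the region at 147795718 to 147796915 (34.7 tags, 1197 bp) lay 228 bp from a strong transected peak, where the sham peak had 141.2 tags. Their densities, from 29.0 to 39.7 tags per kb, were close to the median of all transected-only regions.

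Some of the densest regions had another transected-only region beside them, and some did not. On chromosome 2, the regions at 217902495 to 217902815 (39.0 tags, 122 per kb) and 217903047 to 217903242 (21.6 tags, 111 per kb) were 232 bp apart. They lay 908 and 481 bp from a strong transected peak, and the sham peak there had 669.6 tags. On chromosome 19, the region at 60065810 to 60066043 (26.8 tags, 115 per kb, score 30) had another transected-only region 244 bp away and no sham peak within 181762 bp. The remaining one of the 5 densest, at 222435621 to 222435848 on chromosome 4 (19.7 tags, 86.8 per kb), lay 252 bp from a strong transected peak. Its nearest other transected-only region was 240589 bp away. The others of the 10 with most tags held 38.0 each. That of chromosome 13 (87249849 to 87250691) lay 242 bp from a sham peak of 9.29 tags. That of chromosome 14 (10791312 to 10792492) was 360 bp from a strong transected peak. That of chromosome 19 (58316774 to 58317341) had no sham peak nearer than 12438 bp.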

How the data were processed

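The data were 2 peak lists, 1 per group of 2 samples, each called by the authors with HOMER findPeaks on a combined tag directory (150 bp windows, minimum distance 370 bp, false discovery rate 0.001), per the file headers; the command names no input library. Per the submitters' processing notes, CASAVA 1.8.2 and Bowtie were among the tools. The sources used here name no genome build and no version of Bowtie or HOMER. Normalized tags are the deposited signal, scaled by the authors to 10000000 tags per library; scaled back, 100% of values lay within 0.2 of a whole tag. Region length (bp), findPeaks score and clonal fold (a ratio) were used as deposited.

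Overlaps, edge-to-edge gaps and merged regions were computed with Python 3.11.15 (numpy 2.4.6, pandas 2.3.3, scipy 1.17.1) and checked on simulated intervals. No count model or test was run, since 1 pooled value per group leaves no replicates. Regions named were the 10 with most tags, the 5 widest, densest, farthest from and nearest to a sham peak, the 3 largest groups, the 3 nearest to the tag limit on each side, and 3 shared peaks by ratio. Members, comparison sets and lists were chosen with earlier results of these data known.

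Of the members on chromosome 4, 32 started past 184404305, the end of the last GRCr8 gene there, so that annotation and its promoter sequences do not share the lists' build and were not used.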

Additional observations from a re-analysis of the deposited data

How the results depend on the processing

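No paired analysis was possible because the samples of each group were pooled into 1 list before peaks were called; for the same reason no sample could be left out. With peaks within 370 bp counted as shared, the median gap to a sham peak was 3742 bp, the share within 5 kb of a strong region 33.7%, the share of like peaks without a partner 7.12% and the median centred log2 ratio beside transected-only regions 0.17. Within 1 kb, the number of regions was 705, and these values were 8264 bp, 22.7%, 5.29% and 0.19, with 11.8% having another region within 10 kb. With the upper 75% of peaks by score in both lists there were 2603 regions, with a median width of 312 bp, density of 38.4 tags per kb and gap of 8566 bp; 24.05% flanked a strong region, 25.005% of like peaks had no partner, and the ratio was 0.10. Above 300 bp there were 339 regions (median 421 bp, 44.8% flanking, 10.0% clustered, 4.06% without a partner, ratio 0.18). From 10 tags there were 331 (402 bp, 33.3 tags per kb, 42.6% flanking, 3.37% without a partner, ratio 0.18). With sham windows of 150 bp not counted as partners there were 2122 (31.9 tags per kb, gap 4048.5 bp, 34.3% flanking, 15.9% without a partner). The flanking share was 29.5% at 2 kb and 46.9% at 10 kb, the clustered share 11.4% at 5 kb and 25.9% at 50 kb, and the ratio 0.050 as tags per kb. A limit on clonal fold of 1 removed none of the 1272 regions and is not counted among the alternatives that follow. The flanking share of transected-only regions was above that of sham-only regions in the 8 other settings in which both were computed; the sham-only shares and gaps, and the classes cut on the mean of both lists, were added after seeing the data. Above the shared peaks it stood in 7 of 8, the exception being peaks within 1 kb counted as shared (24.4% in shared peaks). A median of 16 tags per region, against a threshold of 8, limits every value for a single region.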

Other observations

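Regions of 1 window, which the rule leaves out, lay near the other list in a like manner. For the 2624 transected-only ones, the median gap to the nearest sham peak was 2242.5 bp, and 23.3% had one within 370 bp. For the 4076 sham-only ones, the median gap to the nearest transected peak was 6720 bp, and 14.1% had one within 370 bp. The nearest peak of the other list was itself found in 1 list alone for 24.8% of the former and 15.4% of the latter.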
